A study of Mus musculus with 12 samples.

Results

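A set of 7 genes that make, package or clear glutamate and GABA was followed in pituitary glands of adult male mice, out of 18497 named genes in the deposited table. The males had been microinjected as zygotes, 6 of them with vehicle and 6 with a let-7f-5p mimic. They were chosen by their role in amino acid transmission, with earlier results for these glands known: Slc17a6 had already been singled out by its small p in the comparison of the groups. Slc17a6 and Slc17a7 encode vesicular glutamate transporters, and Slc32a1 encodes the vesicular transporter for GABA and glycine. Gad1 and Gad2 encode the glutamate decarboxylases that make GABA, and Slc1a2 and Slc1a3 encode glutamate transporters of the plasma membrane. All 7 were in the table and all 7 passed the filter on low values, which asked for a normalised count of 10 or more in 6 or more libraries.

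The animals were wild-type F1 males from C57BL/6J and 129S1/SvlmJ parents, of adult age with no number of weeks given. Vehicle zygotes had received nuclease-free water. Mimic zygotes had received let-7f-5p, as an RNA stabilised with locked nucleic acid, in a dose that the labels call stress-relevant. All embryos of either group were injected, kept in KSOM medium and transferred to pseudopregnant CD1 recipients, so the controls share every step except the RNA. Total RNA depleted of ribosomal RNA was sequenced, 1 library per gland. The labels do not give litters or recipient dams, so p-values measure the spread between these glands and nothing beyond it.

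Glutamate and GABA are the main fast transmitters of the brain, but endocrine cells also carry parts of the same machinery. A cell that releases glutamate needs a vesicular glutamate transporter, and a cell that releases GABA needs a decarboxylase and usually the vesicular GABA transporter. In the rat, the transcript of Slc17a6 has been described in thyrotrophs and gonadotrophs, the cells that make thyrotropin and the gonadotropins. Melanotrophs of the intermediate lobe, which are marked by Pax7, receive GABA fibres from the hypothalamus. The posterior lobe holds pituicytes, glial cells akin to the astrocytes in which Slc1a3, the transporter known as GLAST, is found in brain.

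The injected sequence and its possible sites in these genes are shown first, because they are what the groups were made to differ in. Capitals mark the seed of the microRNA (bases 2 to 8 from its 5′ end) and, in the 3′ UTRs, the letters CTACCTC that pair with it. The mimic had the same 22 bases as mature mouse let-7f-5p, which RefSeq (GRCm38) lists at 2 loci.
let-7f-5p mimic: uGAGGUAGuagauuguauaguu
Gad1: ttggtgggaggCTACCTCcctgc
Gabbr2: acccatcctgcCTACCTCacagg
Among the 7 genes, Gad1 alone held the letters CTACCTC, once, at position 426 of its 1218-base 3′ UTR (searched on the sense strand, with a single GENCODE M21 transcript for each gene). That is 1 of 7 genes, beside 9.43% of the 15367 table genes with a 3′ UTR in that annotation. Of 78 other glutamate and GABA genes with a 3′ UTR, 7 held it (8.97%). Gabbr2, a subunit of the GABA-B receptor, is printed because its match is followed by an A, the longer match of 8 letters. These are matches of letters, and whether any of them is used was not tested.

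Libraries held 26378308 to 37061136 reads recovered from the deposited values. Levels of tissue markers differed widely among them. Vehicle glands 1, 4 and 6 lay below all other glands in 4 of 5 posterior lobe markers (Nkx2-1, Rax, Col25a1 and Scn7a). In the fifth, Mt3, vehicle 4 (252) was above vehicle 2 (227). The summed level of the 5, most of it from Scn7a and Col25a1 in the other glands, was 667, 1155 and 684 normalised counts in these 3, and it was at least 5309 in each of the other 9 glands. None of the 5 markers was at 0 in any library. Across groups the sum ran from 667 to 19219 in vehicle glands and from 6002 to 9740 in mimic glands. The same 3 vehicle glands were also lowest in Pax7 (145, 431 and 85.1, against 587 to 1924 in the other 9). Summed melanotroph markers (Pax7, Pomc, Pcsk2 and Oacyl) ran from 50322 to 430888 in vehicle glands and from 137577 to 643802 in mimic glands. Results are therefore given over all 12 glands and over the 9 left without these 3, a choice made after the data were seen. The 9 are vehicle 2, 3 and 5 and the 6 mimic glands, so group comparisons over them are uneven. In bulk tissue, fewer cells of a type and less RNA per cell cannot be told apart.

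The 7 genes spanned a wide range of levels. Per kilobase of transcript, and averaged over 12 glands, the level was 435 normalised counts for Slc1a3, 206 for Slc17a6, 153 for Slc1a2, 87.8 for Gad2, 84.9 for Slc17a7, 6.98 for Gad1 and 4.15 for Slc32a1. The first steps of that order held in nearly every gland: Slc1a3 was above Slc17a6 in 11 of 12 glands, Slc17a6 above Slc1a2 in 11, and Slc1a2 above Gad2 in 12. The order depends on the transcript lengths used, 11.6 kilobases for Slc1a2 and 4.14 for Slc17a6. Before division by length, Slc1a2 (1268 to 2270) was above Slc17a6 (652 to 1211) in every gland. Gad2 and Slc17a7 were not separated, since Gad2 was higher in 8 of 12 glands. Slc17a7 was above Gad1 in 12 of 12 glands, whereas Gad1 was above Slc32a1 in only 7. Of the vesicular glutamate transporters Slc17a6 was the higher, of the decarboxylases Gad2, and the vesicular GABA transporter had the lowest mean of the 7.

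**Figure D1:**
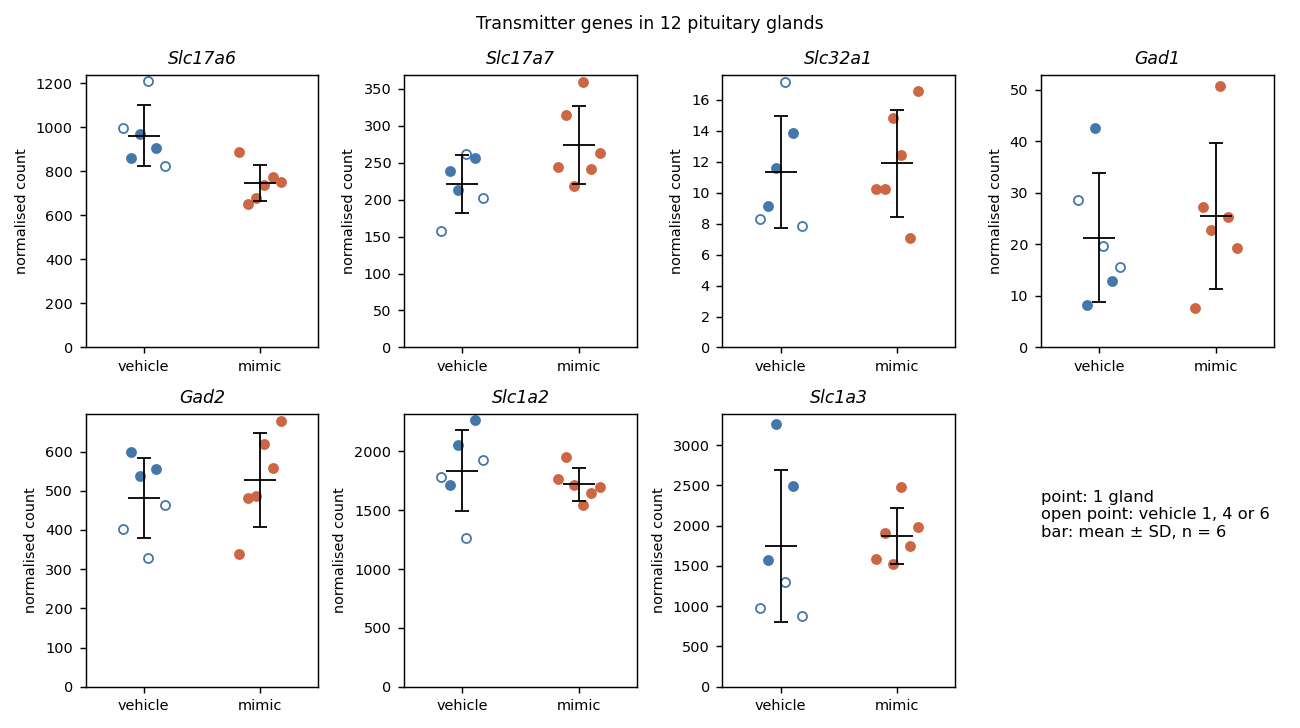
Normalised count (linear axis from 0) of each of the 7 genes in 6 vehicle and 6 mimic glands; each point is 1 gland, open points are vehicle 1, 4 and 6, and bars are mean ± SD. Slc17a6 has all 6 mimic glands below the vehicle mean of 961, and the widest vehicle spread among the 5 more abundant genes is that of Slc1a3, from 883 to 3264.

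Slc17a6, the vesicular glutamate transporter of most subcortical neurons, had the smallest overlap between groups. It was at 824, 937 and 1211 normalised counts (lowest, median and highest) in vehicle glands and at 652, 743 and 888 in mimic glands. The means were 961 ± 138 (SD, n = 6) and 746 ± 83.1 (SD, n = 6). All 6 mimic glands lay below the vehicle mean, and the groups overlapped through a single mimic gland, mimic 1 at 888, which was above vehicle 2 (862) and vehicle 6 (824). The log2 fold change, mimic minus vehicle, was -0.36 (SE 0.10, 95% interval -0.57 to -0.15), fitted with limma on log2(normalised count + 1). It ranged from -0.41 to -0.29 when each library was left out in turn, and it was -0.29 over the 9 glands. Because the gene had been picked on this contrast, the difference is a description.

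Slc17a7, the vesicular glutamate transporter of most cortical neurons, leaned the other way. Its levels were 157, 226 and 262 normalised counts in vehicle glands and 219, 254 and 359 in mimic glands. The groups overlapped, and 5 of 6 mimic glands were above the vehicle mean (222 ± 39.2 against 273 ± 52.8, SD, n = 6 each). The log2 fold change was 0.30 (SE 0.15, 95% interval -0.01 to 0.61), and 0.19 over the 9 glands. The contrast between these paralogs was not tested, and their transcripts share no stretch of 31 bases.

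Slc32a1 and Gad1 were near the limit of the depth. Slc32a1 had 7 to 18 recovered reads per library, and Gad1 had 9 to 45. Slc32a1 was at 7.84, 10.4 and 17.1 normalised counts in vehicle glands and at 7.07, 11.3 and 16.6 in mimic glands, ranges that nearly coincide. Its log2 fold change was 0.07 (SE 0.26, 95% interval -0.49 to 0.63), and it turned sign within the range of -0.029 to 0.20 when each library was left out in turn. Its spread in vehicle glands, a coefficient of variation of 32.1%, was close to the 29.3% that counting alone gives at its mean of 11.7 reads. Gad1, which encodes the decarboxylase that makes most GABA in brain, was at 8.26, 17.6 and 42.7 in vehicle glands and at 7.70, 24.0 and 50.8 in mimic glands. Its log2 fold change was 0.25 (SE 0.42, 95% interval -0.65 to 1.15), and 0.39 over the 9 glands. It was 0.018 without mimic 4 and 0.53 without mimic 1. Unlike Slc32a1, Gad1 varied more than counting gives, with a coefficient of variation of 58.8% in vehicle and 55.6% in mimic glands against 20.9%. A difference in Slc32a1 within its interval was not detectable at this depth.

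Gad2, the vesicle-associated decarboxylase, was the abundant GABA gene. It was at 328, 501 and 600 normalised counts in vehicle glands and at 338, 523 and 679 in mimic glands (means 481 ± 103 and 527 ± 120, SD, n = 6 each). The ranges overlapped almost wholly. The log2 fold change was 0.13 (SE 0.17, 95% interval -0.25 to 0.50), and its sign turned to -0.13 over the 9 glands. Leaving out 1 library gave 0.022 (without vehicle 4) to 0.25 (without mimic 1). The 3 lowest vehicle values, 328, 403 and 463, were those of vehicle 4, 1 and 6.

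The pair of plasma membrane glutamate transporters differed in how steady they were. Slc1a2, the main glial glutamate transporter of the forebrain, was at 1268, 1857 and 2270 normalised counts in vehicle glands and at 1547, 1706 and 1956 in mimic glands. Mimic glands lay inside the vehicle range, and the log2 fold change was -0.08 (SE 0.11, 95% interval -0.32 to 0.17), or -0.22 over the 9 glands. It was -0.18 without vehicle 4 and -0.0099 without vehicle 5.

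Slc1a3 was the most variable of the abundant members. It was at 883, 1437 and 3264 normalised counts in vehicle glands (1748 ± 939, SD, n = 6) and at 1524, 1828 and 2485 in mimic glands (1872 ± 349, SD, n = 6). Of the 6 vehicle values, 5 lay outside the range of the mimic values. Vehicle 1, 4 and 6 were at 980, 1305 and 883, below every mimic gland, and vehicle 3 and 5 were at 3264 and 2487, above every mimic gland. The 3 glands low in posterior lobe markers (883 to 1305) did not overlap the other 9 (1524 to 3264). The log2 fold change was 0.24 (SE 0.27, 95% interval -0.34 to 0.83) over 12 glands and turned to -0.34 over 9. It was 0.079 without vehicle 6, 0.46 without vehicle 3, and 0.096 by edgeR and 0.098 by DESeq2 on recovered reads. Within groups the SD of log2 values was 0.56, larger than that of 98.9% of 3238 genes of similar level. The posterior lobe markers moved with Slc1a3. The figures over 9 glands set 3 vehicle against 6 mimic glands, and the glands left out were picked by these same markers. Of the vehicle glands kept, vehicle 3 and 5 (marker sums 19219 and 13727) lay above every mimic gland (6002 to 9740). Vehicle 2 (5309) lay below every mimic gland. The turn of sign is therefore no test of the part of posterior lobe content in the group values, which was not tested.

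No member passed the threshold of an adjusted p under 0.05 in any fit: 0 of 7 by limma, by edgeR's quasi-likelihood test and by DESeq2's Wald test, which gave an adjusted p for 5 of them. Over all genes the same rules called 0% by limma, 0% by edgeR and 0.0644% by DESeq2 (10 of 15524). An unadjusted p under 0.05 by limma was met by 879 of 18390 genes, 4.78%. Of the 7 log2 fold changes, 5 were positive and 2 negative with a median of 0.13, beside a median of -0.00053 over all genes tested (9153 positive, 9237 negative). Since the contrast had a part in choosing the genes, nothing is read from these counts.

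Slc1a3 followed Pax7 and, more closely, the posterior lobe markers. Over 12 glands its Pearson r with Pax7 on log2 levels was 0.84. It was 0.58 without the 2 glands farthest from the median of Pax7 (vehicle 1 and 6) and 0.40 over the 9 glands. Within groups it was 0.84 in vehicle and 0.90 in mimic glands, and it was 0.96 when vehicle 3 alone was left out. Its r with the mean log2 level of the 5 posterior lobe markers over those 9 glands was 0.96, and with the astrocyte markers 0.87. The astrocyte markers did not all move together. Among these 9 glands Gfap, S100b and Slc7a10 were highest in vehicle 3, Aqp4 in vehicle 5 and Aldh1l1 in mimic 6. Over 12 glands Aldh1l1 was highest in vehicle 1 (919), where Slc1a3 was at 980. The oligodendrocyte list gave an r of 0.85 with Slc1a3 over the 9 glands. These correlations were a reason for choosing the genes, and points share library and normalisation, so they carry no p.

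Gad2 and Slc17a7 followed Pax7 over 12 and over 9 glands, and the posterior lobe markers only when all 12 were taken. For Gad2 the r with Pax7 was 0.57 over 12 glands, with a Spearman rho of 0.82, and 0.74 over 9 glands. Without vehicle 6, which was lowest in Pax7 (85.1) but not in Gad2 (463), r over 11 glands was 0.71. Within groups r was 0.56 in vehicle and 0.84 in mimic glands. With posterior lobe markers Gad2 had an r of 0.56 over 12 glands and 0.20 over 9. For Slc17a7 the r with Pax7 was 0.71 over 12 glands, 0.45 without vehicle 1 and 6, and 0.63 over 9, with 0.68 in vehicle and 0.74 in mimic glands. Its r with posterior lobe markers was 0.52 over 12 glands and -0.06 over 9. With the gonadotroph markers (Lhb, Fshb, Gnrhr and Nr5a1) it was -0.25 over 12 glands and -0.76 over 9.

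Slc17a6 went with Tshb, the beta subunit of thyrotropin, in the vehicle glands. Its r with Tshb was 0.66 over 12 glands, 0.37 without mimic 4 and vehicle 4, and 0.26 over 9 glands. It was 0.78 among vehicle glands and 0.01 among mimic glands, so the relation rested on the vehicle glands, where vehicle 4 had the highest level of each gene (1211 for Slc17a6, 12035 for Tshb). Tshb itself ran from 4640 to 12035 in vehicle and from 3816 to 6697 in mimic glands. For the mean log2 level of the thyrotroph markers (Tshb, Trhr, Dio2 and Tshr), the r of Slc17a6 was 0.27 over 12 glands and 0.25 over 9. The gonadotroph markers gave 0.65 over 12 glands and 0.35 over 9. With Pax7 the r of Slc17a6 was -0.38 over 12 glands and -0.16 over 9. Its highest r with any marker list over 9 glands was 0.70, with the lactotroph markers (Prl, Drd2 and Akr1c14). These markers did not move together: among the 9 glands, mimic 1 was lowest in Drd2 (1927) and highest in Akr1c14 (86.4).

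**Figure D2:**
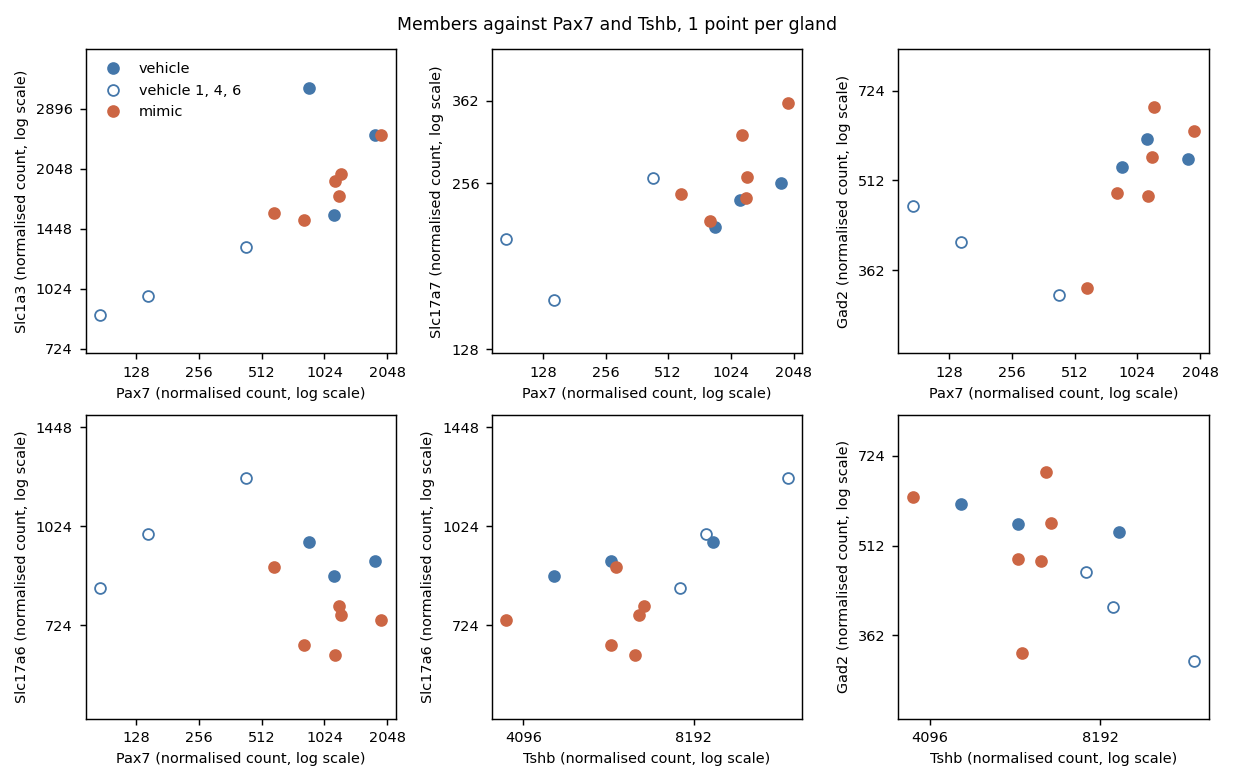
Normalised counts of 4 genes against Pax7 or Tshb on log axes, 1 point per gland, with vehicle 1, 4 and 6 as open points. Slc1a3 climbs with Pax7 (r 0.84 over 12 glands), Slc17a6 climbs with Tshb mainly among vehicle glands (r 0.78, against 0.01 among mimic glands), and Gad2 runs against Tshb (r -0.59 over 12 glands).

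Among the other relations, Gad2 had an r of -0.59 with Tshb over 12 glands and -0.18 over 9, with -0.86 among vehicle and -0.19 among mimic glands. Slc17a7 had an r of -0.50 with Tshb over 12 glands and -0.60 over 9. Gad1 had an r of 0.11 with Pax7 over 12 glands, split into -0.25 in vehicle and 0.91 in mimic glands. The Spearman rho was -0.43 and 0.60. Among mimic glands, mimic 4 was highest and mimic 1 lowest in both genes, and Gad1 had only 9 to 45 reads per library. Slc32a1 had 0.38 with Pax7 and 0.10 with Tshb, and Slc1a2 had 0.04 and -0.17. At the counts of Slc32a1 a weak correlation cannot be separated from counting error.

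**Figure D3:**
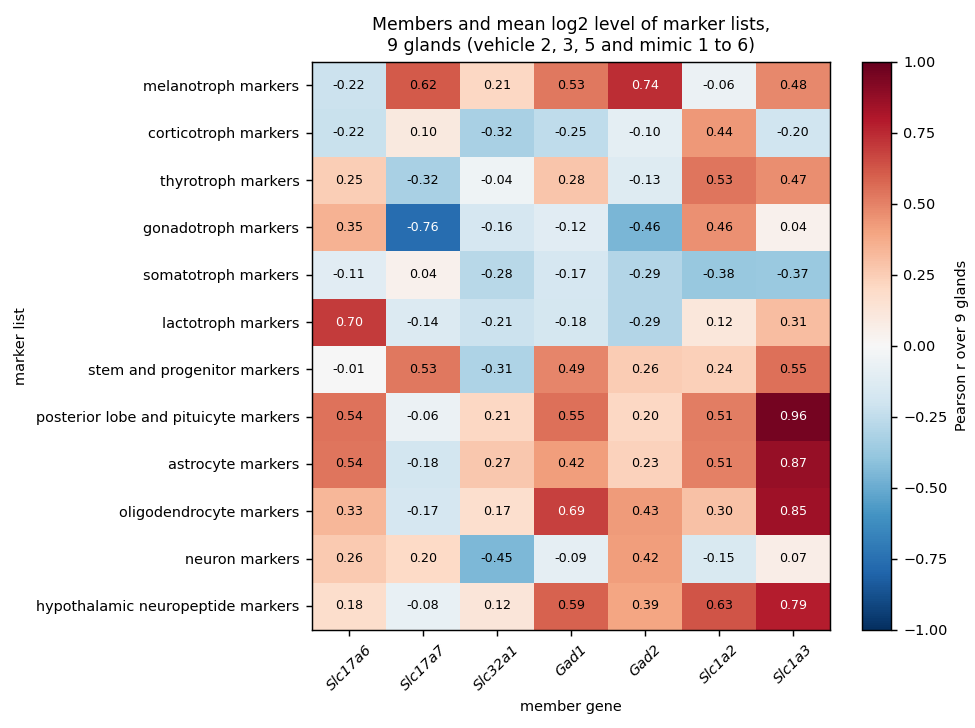
Pearson r over 9 glands (vehicle 2, 3 and 5 and the 6 mimic glands) between log2 levels of the 7 genes (columns) and the mean log2 level of 12 marker lists (rows). Slc1a3 has its highest values with the posterior lobe (0.96), astrocyte (0.87) and oligodendrocyte (0.85) lists, Gad2 with the melanotroph list (0.74) and Slc17a6 with the lactotroph list (0.70).

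No pair of the 7 genes passed a test of varying together. After the group means were removed, 0 of 21 pairs of members passed an adjusted p under 0.05 in a permutation test of Pearson r within groups (100000 resamples, two-sided, Benjamini-Hochberg over 21 pairs), the smallest adjusted p being 0.564. By Spearman rho the smallest was 0.653. Of the pairs, 13 of 21 had a positive r. By Pearson r, Slc17a6 and Gad2 had the only unadjusted p under 0.05, with r = -0.61 (permutation p = 0.045, 12 glands), and r was 0.17 without the 2 glands farthest from the median of Slc17a6. By Spearman rho it was Slc17a7 and Slc1a3, with rho = 0.66 (permutation p = 0.038, 12 glands). For Gad2 and Slc1a3 r was 0.51 over 12 and 0.28 over 9 glands, and for Gad1 and Slc1a3 it was 0.32 and 0.81.

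For each gene, the 3 genes of highest r were taken from 15277 genes whose mean was 50 or more, over 12 glands with group means removed. For Slc1a3 they were Wwtr1 (r = 0.98), Hspb8 (0.97) and Rgs7bp (0.97), and for Slc17a7 they were Cpne5 (0.96), Paqr4 (0.91) and Vstm2l (0.90). Slc17a6 was most like Zc3h15 (0.95), Pdia6 (0.94) and Pdxdc1 (0.93). Gad2 was most like Nyap2 (0.94), Ogt (0.93) and Map2 (0.92), and Slc1a2 most like Slc4a7 (0.90), Slc12a2 (0.88) and Serp2 (0.88). The closest genes of the 2 low genes were Elp4 (0.90), Exo1 (0.86) and Lrrc3b (0.85) for Gad1 and Cav1 (0.83), Echdc2 (0.80) and Sult4a1 (0.80) for Slc32a1. No member was among the 3 closest genes of another. An r over 0.8 was reached by 411 genes for Slc1a3, 104 for Gad2, 84 for Slc17a6 and 36 for Slc1a2. It was reached by 34 genes for Slc17a7, 9 for Gad1 and 2 for Slc32a1. The named values are high partly because they were picked as the highest of many. The number that chance gives over 12 glands was not computed.

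Of 85 other glutamate and GABA genes, 79 were in the table and were tested, with means from 15.4 to 11416 normalised counts, and 67 of them passed a minimum of 50. Glul, which turns glutamate into glutamine, had that highest mean, or 4089 per kilobase. Slc6a11, a plasma membrane GABA transporter, reached 402 per kilobase, close to Slc1a3. Slc17a8, the remaining vesicular glutamate transporter, had 121 per kilobase, between Slc1a2 and Gad2. Receptor subunits had means of 3934 for Gabrb1 (GABA-A), 4162 for Grik2 (kainate), 3993 for Gria2 (AMPA), 2319 for Grin1 (NMDA) and 1375 for Gabbr1 (GABA-B), in normalised counts not corrected for length.

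None of the 79 passed limma's adjusted p under 0.05 (smallest adjusted p = 0.976), 44 log2 fold changes were positive and 35 negative, and their median was 0.04. An unadjusted p under 0.05 was met by 12 of the 79, 15.2%, against 4.78% of all genes tested, with 6 higher and 6 lower. The lists had been drawn up with earlier results of these glands known, so this share is a description. Neto2, an auxiliary subunit of kainate receptors, had the smallest p of them. It was at 506, 555 and 653 normalised counts among vehicle glands and at 650, 681 and 935 among mimic glands, and all 6 mimic glands were above the vehicle mean. Its log2 fold change was 0.39 with an SE of 0.10 (adjusted p = 0.976 by limma). That fold change was 0.33 over the 9 glands. Cacng5, an auxiliary AMPA receptor subunit, had -0.45 (SE 0.14) over 12 and -0.48 over 9 glands, with all 6 mimic glands below the vehicle mean. Gabra5, a GABA-A receptor subunit at 35.7 ± 10.8 (SD, n = 6) normalised counts under vehicle and 21.1 ± 4.31 (SD, n = 6) under mimic, had -0.69 (SE 0.23), and -0.38 over the 9.

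By list, the medians of log2 fold changes stayed within 0.14 of 0. They were 0.08 for the other transporters (7 genes), -0.02 for metabolism (12), 0.05 for GABA-A subunits (15), 0.06 for GABA-B subunits (6), 0.13 for AMPA subunits (4), 0.14 for kainate and delta subunits (7), -0.02 for NMDA subunits (7), -0.06 for metabotropic glutamate receptors (7) and 0.08 for auxiliary subunits (14). In every list 0 genes passed the adjusted threshold in either direction. Glud1, which breaks glutamate down, and Abat, which breaks GABA down, each had -0.13 (SE 0.05 and 0.06).

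**Figure D4:**
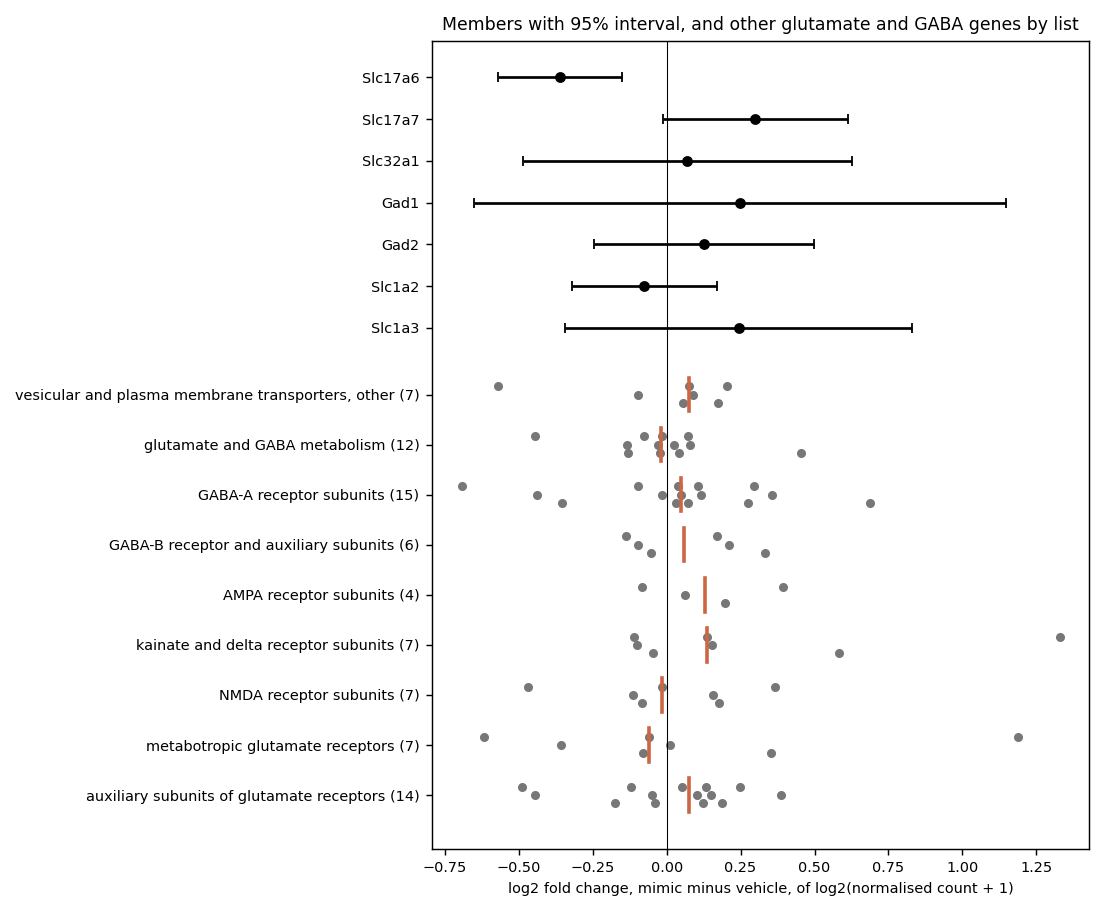
Log2 fold change, mimic minus vehicle, of log2(normalised count + 1): the 7 genes with their 95% intervals (top) and 79 other glutamate and GABA genes by list (grey points, list median as a bar). Slc17a6 (-0.36) has the only interval of the 7 that stays on one side of 0, but it had been picked on this contrast, so this is a description. The intervals are not adjusted for the number of genes. The widest points to the right are Grik1 (1.33) and Grm8 (1.19).

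Several glutamate receptor genes followed Pax7, or ran against it, more closely than the members did. Over 9 glands 0 of the 7 members had an r with Pax7 beyond 0.8 in size. Grik1, a kainate receptor subunit, was at 86.3, 435 and 979 normalised counts among vehicle glands and at 543, 782 and 1151 among mimic glands. Its 3 lowest values, up to 263, were those of vehicle 1, 4 and 6. Over 12 glands the log2 fold change was 1.33 with an SE of 0.54 (adjusted p = 0.976 by limma), and over 9 glands it was 0.07. Over those 9 glands the r with Pax7 was 0.91 for Grik1, 0.95 for Grin3a (an NMDA receptor subunit) and 0.85 for Grm8 (a metabotropic receptor). For Grin3a and Grm8 the log2 fold changes of 0.37 and 1.19 over 12 glands became -0.06 and -0.12. Gria4, an AMPA receptor subunit, ran against Pax7 with an r of -0.88. Gria4, and below Slc38a3 and Grin2b, are named because of these values and not by the rule for named genes.

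Other genes of these lists followed the posterior lobe markers as Slc1a3 did. Over 9 glands r was 0.98 for Slc38a3 (a glutamine transporter), 0.91 for Gria3 (AMPA), 0.84 for Grik3 (kainate) and 0.84 for Grin2b (NMDA). The log2 fold change of Gria3 was 0.39 over 12 and -0.30 over 9 glands, that of Grik3 0.15 and -0.40, and that of Slc38a3 0.46 and -0.43. In all, 5 of 79 genes (6.33%) had an r beyond 0.8 in size with Pax7 and 4 of 79 (5.06%) with the posterior lobe markers. The shares over all genes tested were 1.99% and 2.59%. Of the 79 log2 fold changes, 25 turned sign between 12 and 9 glands. The share over all genes tested was not computed, so nothing about these genes is read from that count. How far lobe content accounts for any of these fold changes was not tested.

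**Figure D5:**
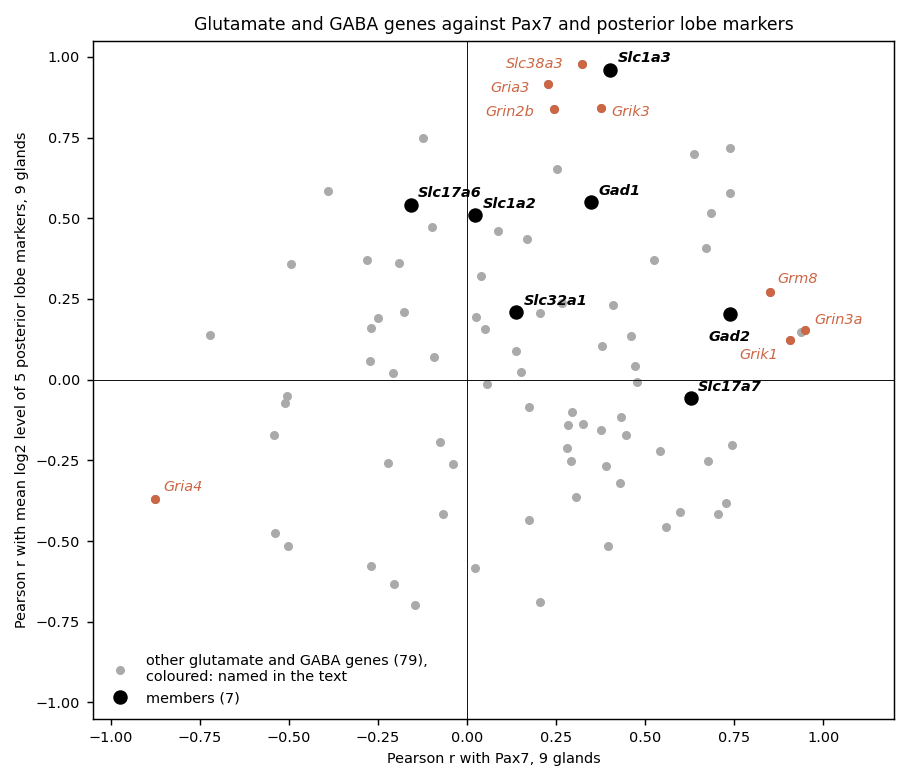
Pearson r over 9 glands with Pax7 (horizontal axis) and with the mean log2 level of 5 posterior lobe markers (vertical axis) for the 7 genes (black) and 79 other glutamate and GABA genes (grey, coloured where named). Slc1a3 (0.40, 0.96) lies with Slc38a3, Gria3, Grik3 and Grin2b at the top, and Gad2 (0.74, 0.20) and Slc17a7 (0.63, -0.06) lie toward Grik1, Grin3a and Grm8 at the right.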

How the data were processed

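The authors deposited 1 table of normalised counts (a signal per gene) with 12 columns, 1 per gland, all of which were used. Per the submitters' processing notes, the tools included Trimmomatic 0.39, kallisto 0.50.1 and DESeq2 1.48.2, with build GRCm39. Dividing each column by its step gave whole numbers for 100% of values within 0.001, called recovered reads. The unnamed row, 0.0359% to 0.0567% of reads, was left out. Library precision is that of 26378308 to 37061136 reads, and coefficients of variation from counting cover counting error only.

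The fit was limma-trend (limma 3.58.1, R 4.3.3) on log2(normalised count + 1), without covariates, 6 against 6 glands, on 18390 of 18497 genes with at least 10 in at least 6 libraries. Genes with an adjusted p under 0.05 (two-sided, Benjamini-Hochberg) were called. On recovered reads, edgeR 4.0.16 and DESeq2 1.42.0 were alternatives. Others were pseudocounts of 0.5 and 5, no filter, a minimum of 50, TMM rescaling, a replicate block, each library left out, and the 3 vehicle libraries lowest in posterior lobe markers left out, the last chosen after the data were seen. The fits were tested on simulated counts.

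The genes described and all lists were chosen with earlier results of these data known. Named are all members, the 2 highest and 2 of smallest p in each of 9 pathway lists (some are not reported here), and the 3 genes most like each member. Transcript lengths and 3′ UTRs came from GENCODE M21 (GRCm38, not the authors' build) by symbol, 15627 of 18497 matching (84.5%).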

Additional observations from a re-analysis of the deposited data

Results flagged for a closer look

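In 74 groups of 6 glands examined (members, named pathway genes, Pax7 and Tshb), 4 held a gland whose gap to its nearest neighbour exceeded Dixon's critical share of the group's range, and chance flags about 3.7. Gabrg1, a GABA-A receptor subunit, was at 245.5 normalised counts in mimic 2, and the other mimic glands were at 176 to 192. Grm5, a metabotropic glutamate receptor, was at 357 in vehicle 1, and the other vehicle glands were at 276 to 303. Grm2, another metabotropic receptor, was at 60.6 in vehicle 5 against 19.4 to 34.3. Tshb was at 3816 in mimic 4, and the other mimic glands were at 5863 to 6697. None of the 7 transmitter genes held such a gland in either group.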

How the results depend on the processing

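Counts of genes past the threshold were 0 in each alternative except DESeq2, which called 10. With the replicate block limma called 0 genes (837 at an unadjusted p under 0.05, smallest adjusted p 0.993). Same-numbered glands deviated with correlations of -0.15 to 0.09, which show no pairing by number. Whether such glands shared a litter or dam was not tested, since the labels do not give these. The block changed no call. Of the 7 members, Slc1a3 alone moved by more than 1 SD, to -0.34 without the 3 vehicle libraries. Without those 3, log2 fold changes also turned sign for Gad2 (-0.13) and, among the named pathway genes, for Kctd12 (-0.047), Kctd12b (-0.14), Gria1 (-0.19), Gria3 (-0.30), Grik3 (-0.40), Grin3a (-0.063) and Grm8 (-0.12). With each library left out in turn, signs turned within these ranges: Slc32a1 -0.029 to 0.20, Slc17a8 -0.0093 to 0.090, Gabrb1 -0.0060 to 0.090, Gabbr1 -0.085 to 0.0089, Gria1 -0.15 to 0.30, Grik3 -0.0021 to 0.30 and Shisa9 -0.098 to 0.042. The median of metabotropic receptors became 0.18 with a minimum of 50, which leaves fewer genes in the list.

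Correlations moved more. With Pax7, vehicle glands alone gave 0.029 for Slc17a6 and -0.25 for Gad1. Mimic glands alone gave 0.043 for Slc32a1, 0.91 for Gad1, 0.84 for Gad2 and -0.48 for Slc1a2. Without the 2 farthest glands r was 0.45 for Slc17a7, -0.21 for Slc32a1, 0.84 for Gad2, 0.47 for Slc1a2 and 0.58 for Slc1a3. Over 9 glands it was -0.16 for Slc17a6, 0.74 for Gad2 and 0.40 for Slc1a3, and over 12 glands the rho of Gad2 was 0.82. With Tshb, vehicle glands alone gave -0.15 for Slc17a7, 0.71 for Gad1 and -0.86 for Gad2. Mimic glands alone gave 0.012 for Slc17a6, -0.56 for Gad1, -0.19 for Gad2, 0.61 for Slc1a2 and -0.67 for Slc1a3. Without the 2 farthest glands r was 0.37 for Slc17a6, 0.74 for Gad1 and -0.23 for Gad2. Over 9 glands it was 0.26 for Slc17a6, -0.18 for Gad2, 0.52 for Slc1a2 and 0.28 for Slc1a3. The cause of these shifts was not tested. The depth limits Slc32a1 and Gad1, with fewer than 50 reads in every library.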
